A study of Homo sapiens with 6 samples.

Results

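The TGF-beta ligands, receptors and SMADs were taken as 10 genes by name, the ligands TGFB1, TGFB2 and TGFB3, the receptors TGFBR1, TGFBR2 and TGFBR3, and the intracellular SMAD2, SMAD3, SMAD4 and SMAD7. Of these 10 names, 9 matched a gene among the 58825 genes of the deposited table, and TGFB1 was not analysed here. The measurements are RNA-seq of HK-2 cells, a line of epithelial cells from the proximal tubule of a human kidney that was immortalized with papilloma virus genes. The Control group held 3 libraries from cells labelled Control, with no OX-LDL dose listed. The OX-LDL group held 3 libraries from cells given 25 μg/ml of oxidized low-density lipoprotein for 48 h. The labels name no genetic change in either group, and a time or vehicle for the Control cells is not given in the sources used here. The study's methods describe a low-serum starvation before OX-LDL and say in general that cell experiments were repeated independently, but no source used here ties the libraries to separate experiments. The p-values measure the spread between these libraries, which may be partly technical.

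TGF-beta is secreted in a latent complex and signals once it is released. The active ligand binds the type II receptor TGFBR2, which recruits and phosphorylates the type I receptor TGFBR1. TGFBR1 phosphorylates SMAD2 and SMAD3, which join SMAD4 and enter the nucleus to bind DNA. TGFBR3 (betaglycan) is a co-receptor that presents TGF-beta, above all TGF-beta 2, and SMAD7 is an inhibitor that SMAD signaling itself switches on. In the kidney the pathway is best known for its part in tubulointerstitial fibrosis. Its activity is set by phosphorylation, which RNA levels do not show.

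Promoter windows are shown for the 3 genes with the smallest p-values, TGFBR2, TGFB2 and SMAD7, because SMAD complexes bind the letters CAGAC, the SMAD box. The windows are from RefSeq (GRCh38.p14) and run from 250 bases before to 50 bases after an annotated start, on the strand of the gene. Capitals mark CAGAC or its reverse complement GTCTG. Where a gene had several windows, the one nearest to the start in the deposited table was taken, 99 bases away for TGFBR2, 1087 bases away for SMAD7 and at the same base for TGFB2.
TGFBR2, chr3:30606351-30606650, plus strand: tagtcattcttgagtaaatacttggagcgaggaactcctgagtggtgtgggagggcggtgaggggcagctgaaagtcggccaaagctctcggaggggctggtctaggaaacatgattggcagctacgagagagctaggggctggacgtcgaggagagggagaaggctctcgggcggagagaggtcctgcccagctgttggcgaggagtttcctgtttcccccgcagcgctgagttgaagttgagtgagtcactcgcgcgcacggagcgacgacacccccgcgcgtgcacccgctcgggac
TGFB2, chr1:218345086-218345385, plus strand: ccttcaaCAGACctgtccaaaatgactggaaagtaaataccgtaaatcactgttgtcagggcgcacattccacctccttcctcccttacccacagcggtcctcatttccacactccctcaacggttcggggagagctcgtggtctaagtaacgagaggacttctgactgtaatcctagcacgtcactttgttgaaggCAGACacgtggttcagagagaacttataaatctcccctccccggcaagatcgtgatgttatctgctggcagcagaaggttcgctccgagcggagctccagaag
SMAD7, chr18:48950916-48951215, minus strand: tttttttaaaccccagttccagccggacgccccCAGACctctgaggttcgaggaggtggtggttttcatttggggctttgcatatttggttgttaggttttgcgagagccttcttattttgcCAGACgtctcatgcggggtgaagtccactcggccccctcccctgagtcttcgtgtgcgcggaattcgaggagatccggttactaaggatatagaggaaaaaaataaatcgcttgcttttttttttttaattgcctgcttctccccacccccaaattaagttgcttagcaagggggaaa
The TGFB2 and SMAD7 windows held 2 matches each, and the TGFBR2 window held 0. The letters are short and common. They were found in 45.3% of all 35116 windows of this length and in 11 of the 25 windows of the 9 genes.

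The libraries summed to 62561347 to 76797607 counts. More genes held 4, 8 or 12 counts than held the neighbouring values, so about 4 counts were taken to stand for 1 pair of reads, and the libraries then held 15640337 to 19199402 pairs. Correlations of log2 levels averaged 0.977 to 0.981 with libraries of the same group and 0.952 to 0.959 with those of the other group. All 5 epithelial markers (KRT8, KRT18, KRT19, CDH1 and EPCAM) were above 12 counts, taken here as the limit of detection, in every library, although CDH1 had only 15 to 73 counts. Of 11 renal and proximal tubule markers, 5 were above it in every library (among them PAX8, PAX2, GGT1 and SLC5A2), and LRP2 (megalin) and SLC22A6, which define the mature proximal tubule, were at 0. The summed level of the epithelial list was 120 to 145 FPKM (fragment counts divided by transcript length and library size) in Control and 174 to 224 FPKM in OX-LDL, and PAX8 fell from 46.6 to 19.4 FPKM (edgeR, adjusted p = 0.018). The sum of the renal list was 51.5 to 93.4 FPKM in Control and 51.6 to 62.8 FPKM in OX-LDL. Of 5 fibroblast markers, 3 were above the limit in every library (COL1A1, PDGFRB and LUM), with a sum of 10.1 to 12.01 FPKM in Control and 8.76 to 14.1 FPKM in OX-LDL, and DCN was at 0. Of 5 macrophage markers only CD14 passed in every library (sums 0.188 to 0.385 and 0.283 to 0.567 FPKM, CD163 at 0), and none of 4 endothelial markers did (sums at most 0.0957 FPKM). The part of these shifts in the changes below was not tested. In bulk RNA, fewer cells of a kind and less RNA per cell cannot be told apart.

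TGFBR2 was the only member called. It rose 1.53-fold, while 8 of the 9 members did not pass the test, which does not show that they were unchanged. Genes were called at an adjusted p under 0.05 with edgeR over the 19510 genes whose mean reached 0.1 FPKM. By this rule 1 of 9 members was called, or 11.1%, beside 15.3% of all tested genes, and 7.91% of all tested genes were called higher and 7.42% lower. No member had a fold change above 2 or below 0.5 with an unadjusted p under 0.05, as 6.36% of all tested genes did. The study's results give these limits with a p-value under 0.05, without saying whether it was adjusted, and its methods name adjusted p-values. The groups did not overlap in FPKM for 3 of the 9 members, beside 37.2% of all tested genes. The unadjusted p was under 0.05 for 3 members (TGFBR2, TGFB2 and SMAD7), beside 30.4% of all tested genes. The median log2 fold change of the 9 members was 0.17, with 5 higher and 4 lower, and that of all tested genes was -0.0043.

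**Figure D1:**
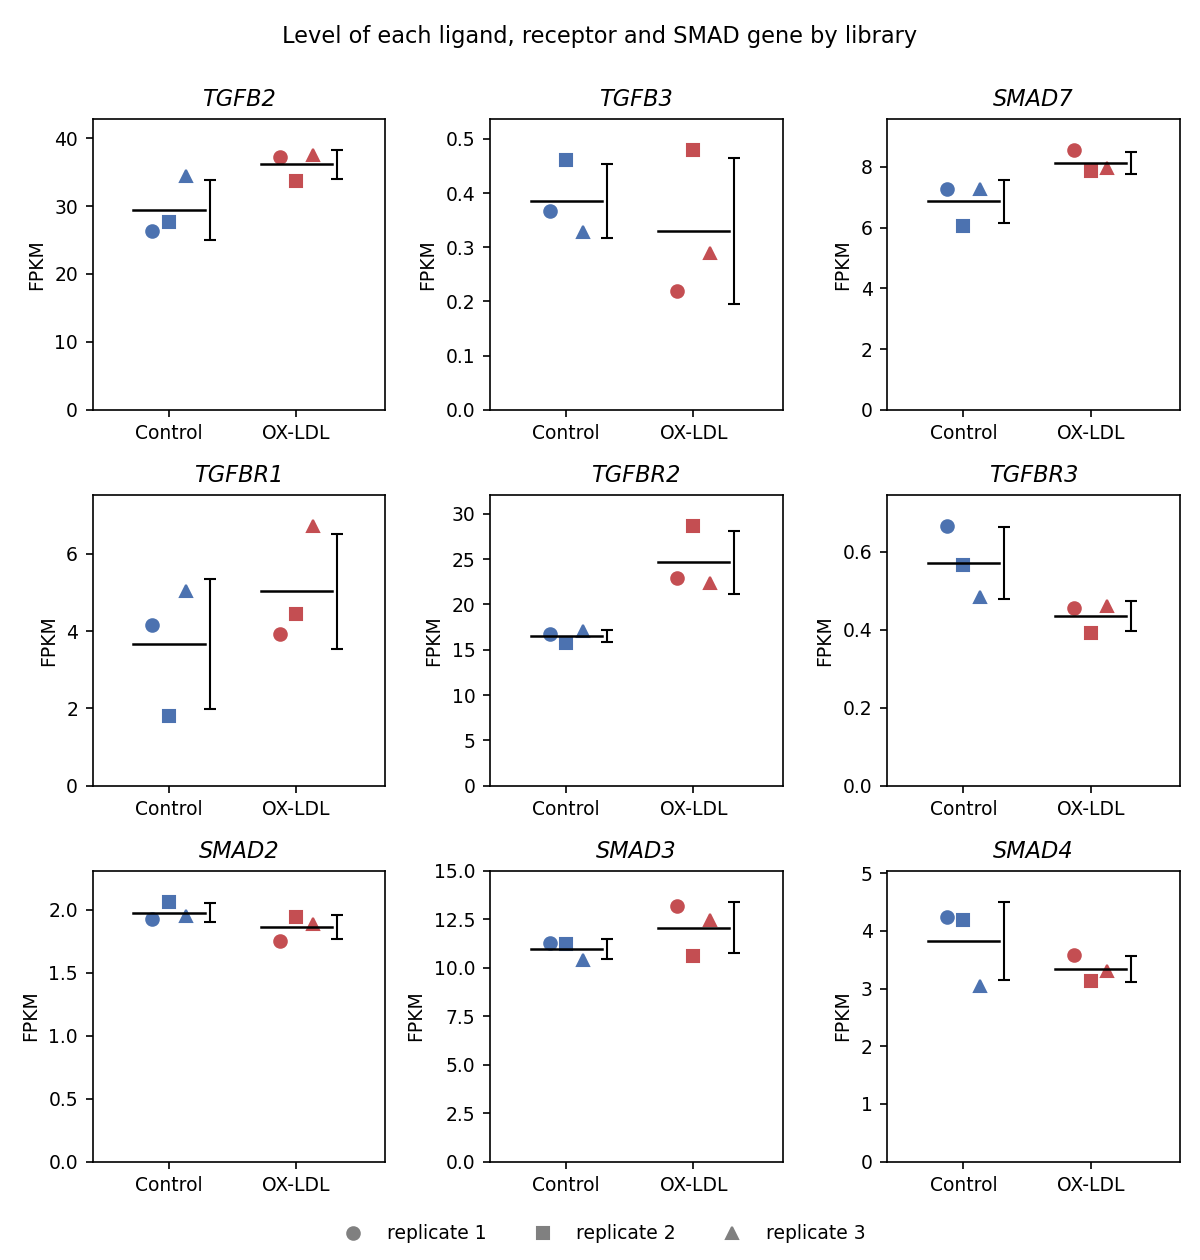
FPKM of each of the 9 genes in the 3 Control (blue) and 3 OX-LDL (red) libraries. Symbols mark the replicate, horizontal lines the group mean and error bars the SD. Every axis starts at 0. TGFBR2 sits between 15.8 and 17.1 FPKM in Control and between 22.3 and 28.7 FPKM in OX-LDL, while the groups overlap for TGFB2, TGFB3, TGFBR1, SMAD2, SMAD3 and SMAD4.

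TGFB2 was the most abundant of the 9 transcripts, and it was not called. TGFB2 encodes the TGF-beta 2 ligand and lies on the plus strand of chromosome 1 (GRCh38, chr1:218345336-218444619). Its level was 26.3, 27.6 and 34.4 FPKM in Control 1 to 3 and 37.2, 33.7 and 37.5 FPKM in OX-LDL 1 to 3. The groups overlapped because Control 3 lay above OX-LDL 2. The mean went from 29.4 ± 4.37 to 36.1 ± 2.13 FPKM (SD, n = 3 each), a log2 fold change of 0.33 ± 0.11 (SE) with a 95% interval of 0.059 to 0.60 (edgeR, adjusted p = 0.103). Control 3 decided this result. Without it the log2 fold change was 0.46 and TGFB2 was called (edgeR, adjusted p = 0.0284), and without any other library the adjusted p was 0.106 to 0.262. TGFB2 shares bases with TGFB2-OT1 on its own strand and with TGFB2-AS1 on the other, and each of these had at most 0.312% of the TGFB2 count.

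TGFB3, the gene of the TGF-beta 3 ligand, was the least abundant of the 9. It lies on the minus strand at chr14:75958099-75982836. The counts were 159, 204 and 133 in Control and 81, 216 and 130 in OX-LDL, or 20.25 to 54 read pairs per library. In FPKM these were 0.366, 0.462 and 0.328 against 0.219, 0.480 and 0.289. OX-LDL 1 was the lowest library and OX-LDL 2 the highest, so the groups overlapped fully. The log2 fold change was -0.19 ± 0.34 (SE), with an interval of -0.98 to 0.61 (edgeR, adjusted p = 0.761), which does not exclude a fall of nearly 2-fold. Without OX-LDL 1 the estimate turned to 0.038. The gene shares bases with IFT43 on the other strand, which had 576 to 980 counts, up to 711% of the TGFB3 count, and which fell by 0.46 on the log2 scale (edgeR, adjusted p = 0.0492). The sources used here do not say whether strand was used in counting, so reads of the overlap may be shared between TGFB3 and IFT43.

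TGFBR2, the type II receptor kinase that binds the ligand first, rose in OX-LDL. It lies on the plus strand at chr3:30606502-30694142. Its level was 16.7, 15.8 and 17.1 FPKM in Control and 22.9, 28.7 and 22.3 FPKM in OX-LDL. All 3 OX-LDL libraries lay above all 3 Control libraries, as for 16.8% of all tested genes, and OX-LDL 2 was the highest. The mean went from 16.5 ± 0.689 to 24.6 ± 3.50 FPKM (SD, n = 3 each). On the log2 scale the rise was 0.61 ± 0.11 (SE) with an interval of 0.34 to 0.88, which is 1.53-fold with an interval of 1.27 to 1.84 (edgeR, adjusted p = 0.0165). The call was lost without Control 2, where the log2 fold change was 0.57 (edgeR, adjusted p = 0.0657), and held without each of the other 5 libraries. The only overlapping gene, AC096921 on the other strand, had at most 2 counts.

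TGFBR1, the type I receptor kinase that passes the signal to SMAD2 and SMAD3, had the widest interval of the 9. It lies on the plus strand at chr9:99104038-99154192. Its level was 4.17, 1.80 and 5.02 FPKM in Control and 3.93, 4.43 and 6.72 FPKM in OX-LDL. Control 2 was low and OX-LDL 3 high, and the other 4 libraries of the groups overlapped. The low value of Control 2 rested on 273 read pairs, and those of the other libraries on 494.5 to 1038.75. The log2 fold change of 0.49 ± 0.39 (SE) had an interval of -0.44 to 1.41 (edgeR, adjusted p = 0.460). Without Control 2 it was 0.15, and without Control 3 it was 0.78, neither of them called.

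TGFBR3, the co-receptor betaglycan, was expressed at well under 1 FPKM. It lies on the minus strand at chr1:91680343-91886151. Its level was 0.667, 0.566 and 0.484 FPKM in Control and 0.457, 0.391 and 0.460 FPKM in OX-LDL. All 3 OX-LDL libraries were below all 3 Control libraries, as they were for 20.5% of all tested genes. The log2 fold change of -0.36 ± 0.19 (SE) had an interval of -0.80 to 0.076 and did not pass the test (edgeR, adjusted p = 0.242). There were 72.5 to 126 read pairs behind each value.

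**Figure D2:**
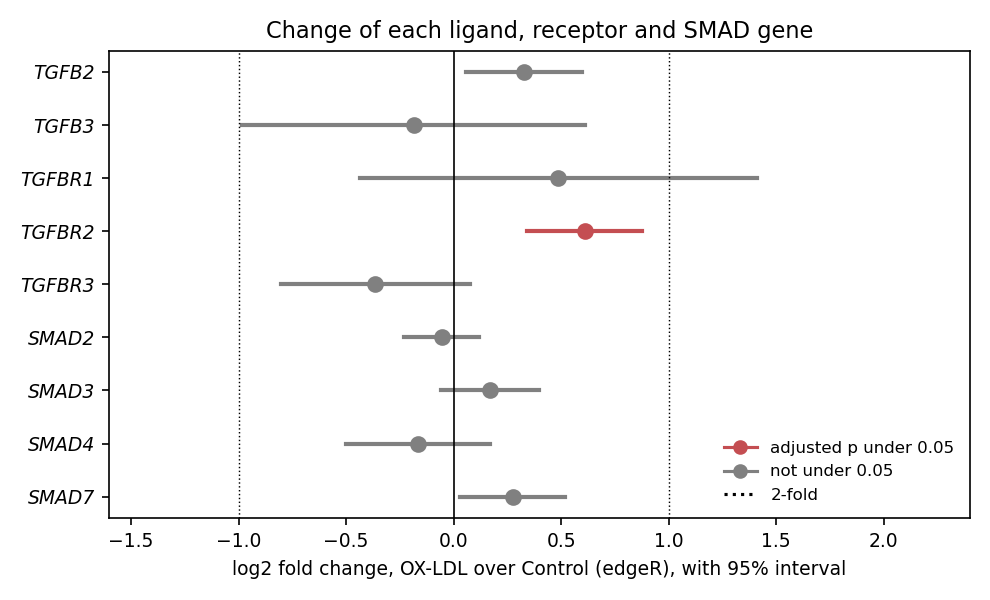
Log2 fold change of OX-LDL over Control with its 95% interval for each of the 9 genes from edgeR. Red marks an adjusted p under 0.05, grey the others, and dotted lines a 2-fold change. Only the interval of TGFBR2 (0.34 to 0.88) belongs to a called gene, and the intervals of TGFB3 (-0.98 to 0.61) and TGFBR1 (-0.44 to 1.41) are the widest.

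SMAD2 and SMAD3, the SMADs that the receptor phosphorylates, had narrow intervals around small differences. SMAD2, on the minus strand at chr18:47808957-47931141, was at 1.92, 2.06 and 1.95 FPKM in Control and at 1.75, 1.95 and 1.88 FPKM in OX-LDL. The groups overlapped, and the difference on the log2 scale was -0.054 ± 0.073 (SE) with an interval of -0.23 to 0.12 (edgeR, adjusted p = 0.674). SMAD3, on the plus strand at chr15:67063763-67195169, was at 11.3, 11.2 and 10.4 FPKM in Control and at 13.2, 10.6 and 12.5 FPKM in OX-LDL. Of the OX-LDL libraries, 2 lay above all Control libraries, and OX-LDL 2 lay within their range. For SMAD3 the log2 fold change was 0.17 ± 0.096 (SE) with an interval of -0.057 to 0.40 (edgeR, adjusted p = 0.286). Both intervals lie inside a 2-fold change in either direction.

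SMAD4, the partner of the phosphorylated SMADs, lies on the plus strand at chr18:51028394-51085045. Its level was 4.24, 4.20 and 3.04 FPKM in Control and 3.59, 3.13 and 3.30 FPKM in OX-LDL. The 3 OX-LDL libraries all lay inside the Control range, in which Control 3 was low. The log2 fold change was -0.16 ± 0.14 (SE) with an interval of -0.50 to 0.17 (edgeR, adjusted p = 0.491).

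SMAD7, the inhibitory SMAD that removes and blocks the type I receptor, lies on the minus strand at chr18:48919853-48952052 and shares no base with another gene of the table. Its level was 7.28, 6.06 and 7.27 FPKM in Control and 8.56, 7.88 and 7.98 FPKM in OX-LDL. All 3 OX-LDL libraries were above all 3 Control libraries, as for 16.8% of all tested genes, and Control 2 was the lowest. The mean went from 6.87 ± 0.703 to 8.14 ± 0.370 FPKM (SD, n = 3 each). With a log2 fold change of 0.27 ± 0.10 (SE) and an interval of 0.029 to 0.52, SMAD7 did not pass the adjusted test (edgeR, adjusted p = 0.127).

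In order of FPKM, the Control cells had TGFB2, TGFBR2, SMAD3, SMAD7, SMAD4, TGFBR1, SMAD2, TGFBR3 and TGFB3. The ranges of neighbours in this order overlapped for SMAD4 and TGFBR1 and for TGFBR1 and SMAD2, and for no other neighbours. In OX-LDL the means of TGFBR1 and SMAD4 changed places (5.03 ± 1.49 and 3.34 ± 0.230 FPKM, SD, n = 3), and only the ranges of TGFBR3 and TGFB3 overlapped. SMAD3 was above SMAD2 in all 6 libraries, and TGFBR2 was above TGFBR1 in all 6.

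Ratios within a library do not depend on how libraries are scaled. The ratio of TGFBR2 to TGFBR1 in FPKM was 4.01, 8.77 and 3.40 in Control and 5.84, 6.47 and 3.32 in OX-LDL. These overlapped, with a mean log2 difference of 0.024 (exact two-sided permutation test, p = 1). The ratio of SMAD2 to SMAD3 was 0.171, 0.183 and 0.187 in Control and 0.133, 0.184 and 0.151 in OX-LDL, with a mean log2 difference of -0.22 (exact two-sided permutation test, p = 0.3). The ratio of the inhibitor SMAD7 to SMAD3 was 0.646, 0.539 and 0.700 in Control and 0.650, 0.744 and 0.640 in OX-LDL, with a mean log2 difference of 0.11 (exact two-sided permutation test, p = 0.5). Adjusted over the 3 ratios, the permutation p-values were 1, 0.75 and 0.75, and 0.1 is the smallest that 3 against 3 libraries can give.

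The genes whose levels most resembled TGFBR2 over the 6 libraries were sought among the 12258 other genes whose mean reached 1 FPKM. Among the 5 with the highest Pearson r were KIAA0930, with r = 0.997, and GUCD1, GLIS2 and FAM162A, each with r = 0.995. KIAA0930 was at 4.88, 4.75 and 5.15 FPKM in Control and 6.86, 8.05 and 6.43 FPKM in OX-LDL, highest in OX-LDL 2 as TGFBR2 was. Of these 4 genes, only GUCD1 shares no base with another gene in the deposited coordinates. These r values describe 6 points that fall into 2 groups.

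Other genes of the pathway moved in both directions. Of 77 such genes in 7 lists, 72 were tested, and 16 rose and 8 fell, or 33.3% called beside 15.3% of all tested genes. The lists were chosen with earlier results of these data known, so a higher share in them cannot show a response of the pathway. The share called also depends on level. With a minimum of 1 FPKM, edgeR called 29 of 62 pathway genes and 3152 of 12259 genes in all. The median log2 fold change of the 72 was 0.17. In all 6 fits that left out 1 library, 11 of the 24 called genes passed the test. LTBP1, MMP2, ACVR1C, FOXH1 and LDLRAD4 were below the minimum level and were not tested.

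**Figure D3:**
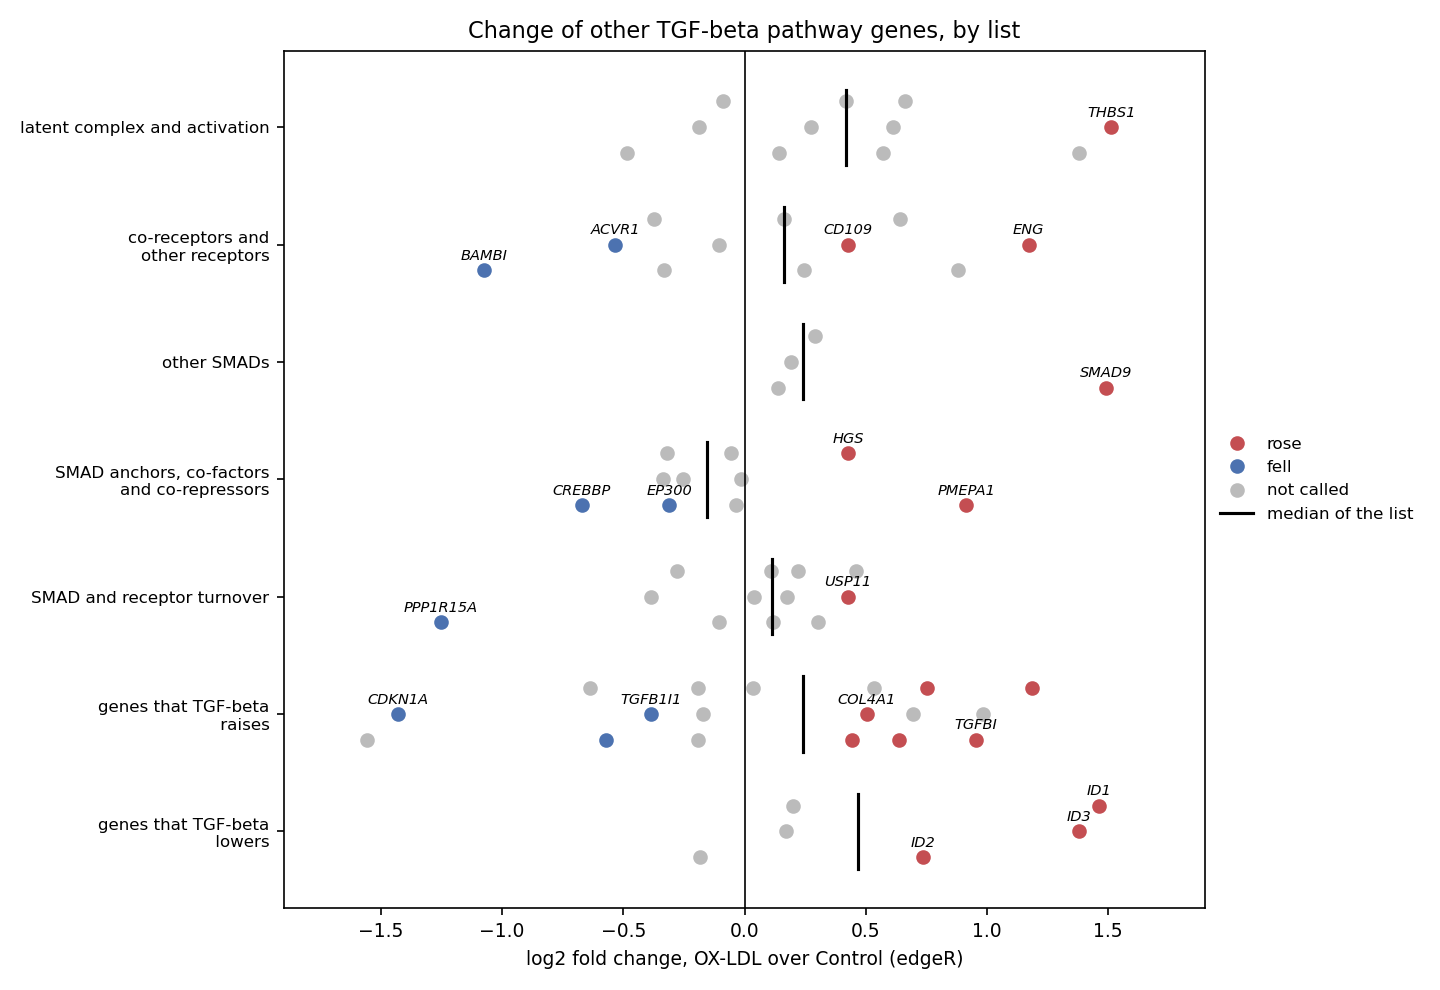
Log2 fold change of OX-LDL over Control from edgeR for the 72 tested pathway genes, 1 point per gene, in rows by list. Red marks genes that rose, blue genes that fell and grey genes that were not called, and black lines are list medians. The called genes lie on both sides of 0, with THBS1 (1.51), SMAD9 (1.49), ID1 (1.46) and ID3 (1.38) at the right and CDKN1A (-1.43), PPP1R15A (-1.25) and BAMBI (-1.08) at the left.

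Of 11 tested genes of the latent complex and its activation, 1 rose and 0 fell, or 9.09% called beside 15.3% of all tested genes. The median log2 fold change was 0.42. THBS1 (thrombospondin 1), which can release TGF-beta from its latent complex, was at 28.1, 22.6 and 29.1 FPKM in Control and 79.0, 64.6 and 79.4 FPKM in OX-LDL. The groups were far apart, with a log2 fold change of 1.51 ± 0.13 (SE; edgeR, adjusted p = 0.0018). Stretches of THBS1 are shared with FSIP1 and AC037198 in the deposited coordinates.

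Of 11 tested co-receptors and other receptors of the superfamily, 2 rose and 2 fell, or 36.4% called beside 15.3% of all tested genes. The median log2 fold change was 0.16. ENG (endoglin), a co-receptor related to TGFBR3, was at 0.991, 1.27 and 1.32 FPKM in Control and 2.96, 2.12 and 2.83 FPKM in OX-LDL (log2 fold change 1.17 ± 0.19, SE; edgeR, adjusted p = 0.0105). BAMBI, a pseudoreceptor without a kinase that dampens TGF-beta signaling, was at 20.6, 19.1 and 16.9 FPKM in Control and 8.62, 8.88 and 8.74 FPKM in OX-LDL (log2 fold change -1.08 ± 0.10, SE; edgeR, adjusted p = 0.0021). Neither gene had overlapping groups, as for 37.2% of all tested genes, and both were called without each library in turn. CD109, a co-receptor that promotes loss of the TGF-beta receptors, rose by 0.43 on the log2 scale, and ACVR1, a type I receptor for BMPs and activins, fell by 0.53 (edgeR, adjusted p = 0.0186 and 0.0203). CD109 was called in 4 and ACVR1 in 1 of the 6 fits that left out a library.

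Of the 4 other SMADs, SMAD9 rose and SMAD1, SMAD5 and SMAD6 were not called. The called share was 25%, beside 15.3% of all tested genes, and the median log2 fold change was 0.24. SMAD9 (SMAD8), a substrate of BMP receptors, was at 0.669, 0.389 and 0.604 FPKM in Control and 1.52, 1.35 and 1.72 FPKM in OX-LDL. It was the SMAD gene with the largest log2 fold change of the 8 measured here, 1.49 ± 0.24 (SE; edgeR, adjusted p = 0.0111), and was called without each library in turn. SMAD1 and SMAD5, the more abundant BMP SMADs, had log2 fold changes of 0.14 and 0.19, and SMAD6, the inhibitory partner of SMAD7, had 0.29 (edgeR, adjusted p = 0.410, 0.119 and 0.128).

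Of 10 tested anchors, co-factors and co-repressors, 2 rose and 2 fell, or 40% called beside 15.3% of all tested genes. The median log2 fold change was -0.16. PMEPA1, a TGF-beta target that holds SMAD2 and SMAD3 away from the receptor, was at 8.67, 8.62 and 11.6 FPKM in Control and 17.8, 19.0 and 16.4 FPKM in OX-LDL (log2 fold change 0.91 ± 0.13, SE; edgeR, adjusted p = 0.0084). Of the acetyltransferases that SMADs recruit, CREBBP fell from 8.64 ± 0.414 to 5.30 ± 0.101 FPKM (SD, n = 3 each; edgeR, adjusted p = 0.0022), and EP300 fell by 0.31 on the log2 scale (edgeR, adjusted p = 0.0275, called in 2 of the 6 fits without a library). HGS, an endosomal anchor, rose by 0.43 (edgeR, adjusted p = 0.0133, called in 5 of the 6). SKIL, a co-repressor that TGF-beta induces, had a log2 fold change of -0.035 (edgeR, adjusted p = 0.925).

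Of 12 genes for turnover of SMADs and receptors, 1 rose and 1 fell, or 16.7% called, close to the 15.3% of all tested genes. The median log2 fold change was 0.12. PPP1R15A (GADD34), which brings a phosphatase to TGFBR1 with SMAD7 and also serves the stress response, was at 25.9, 33.4 and 40.4 FPKM in Control and 14.1, 13.7 and 13.1 FPKM in OX-LDL (log2 fold change -1.25 ± 0.15, SE; edgeR, adjusted p = 0.0049). USP11, a deubiquitinase of TGFBR1, rose by 0.43 on the log2 scale (edgeR, adjusted p = 0.0191) and was called in 2 of the 6 fits without a library.

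Of 18 genes that TGF-beta raises in epithelial cells, 6 rose, 3 fell and 9 were not called. The called share was 50%, beside 15.3% of all tested genes, and the median log2 fold change was 0.24. TGFBI, a secreted matrix protein named for its induction by TGF-beta, was at 32.4, 24.9 and 40.7 FPKM in Control and 60.6, 66.9 and 58.5 FPKM in OX-LDL (log2 fold change 0.95 ± 0.18, SE; edgeR, adjusted p = 0.0161). The TGFBI call was lost without Control 1 or OX-LDL 1 (edgeR, adjusted p = 0.0509 and 0.0515). COL4A1, a basement membrane collagen, rose from 64.9 ± 5.03 to 90.1 ± 4.69 FPKM (SD, n = 3 each; edgeR, adjusted p = 0.0117). In the other direction, CDKN1A (p21), a cell cycle inhibitor, fell from 20.4 ± 2.98 to 7.41 ± 0.688 FPKM (edgeR, adjusted p = 0.0019), and TGFB1I1 (HIC-5) fell by 0.39 on the log2 scale (edgeR, adjusted p = 0.0215, called in 2 of the 6 fits without a library). The remaining called genes of the list, named after their values were seen, were JUNB, IL11, TSC22D1 and TAGLN, which rose, and KLF10, which fell. None of these held in all 6 fits without a library: TSC22D1 and KLF10 were called in 2 of them, JUNB and TAGLN in 1 and IL11 in 0. IL11 had only 7 to 22.75 read pairs per library and was not called on log2(FPKM + 0.1) (limma, adjusted p = 0.0885).

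CCN2 (connective tissue growth factor), a target often read as TGF-beta output, was not called. Its level was 67.3, 60.1 and 63.4 FPKM in Control and 55.3, 54.0 and 54.2 FPKM in OX-LDL (log2 fold change -0.19 ± 0.073, SE; edgeR, adjusted p = 0.131). The groups of CCN2 did not overlap, with the OX-LDL libraries the lower, as for 20.5% of all tested genes. FN1 (fibronectin) and ACTA2 (smooth muscle actin), named after their values were seen, had log2 fold changes of -0.19 and 0.036 (edgeR, adjusted p = 0.0509 and 0.956). The FN1 groups did not overlap, with OX-LDL the lower. FN1 was called on read pairs and with a minimum of 1 FPKM (edgeR, adjusted p = 0.0395 and 0.0277). With limma, FN1 was called on log2(FPKM + 0.1) and on log2(FPKM + 1) (limma, adjusted p = 0.0480 and 0.0486). It was not called with DESeq2 (adjusted p = 0.0684) or without any 1 library. ACTA2 had only 9.5 to 17.5 read pairs per library, and its interval was -0.72 to 0.80.

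Of 6 genes that TGF-beta lowers in epithelial cells, 3 rose and 0 fell, or 50% called beside 15.3% of all tested genes. The median log2 fold change was 0.47. All 3 genes that rose were ID genes, inhibitors of helix-loop-helix factors, which BMP SMADs are known to raise. ID1 was at 29.3, 18.8 and 22.3 FPKM in Control and 66.8, 60.0 and 63.3 FPKM in OX-LDL (log2 fold change 1.46 ± 0.17, SE; edgeR, adjusted p = 0.0042). ID3 was at 14.0, 10.3 and 17.3 FPKM in Control and 31.8, 38.5 and 35.9 FPKM in OX-LDL (log2 fold change 1.38 ± 0.20, SE; edgeR, adjusted p = 0.0077). Both were called without each library in turn. ID2 rose by 0.73 on the log2 scale (edgeR, adjusted p = 0.0289) and was called in 1 of the 6 fits without a library.

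**Figure D4:**
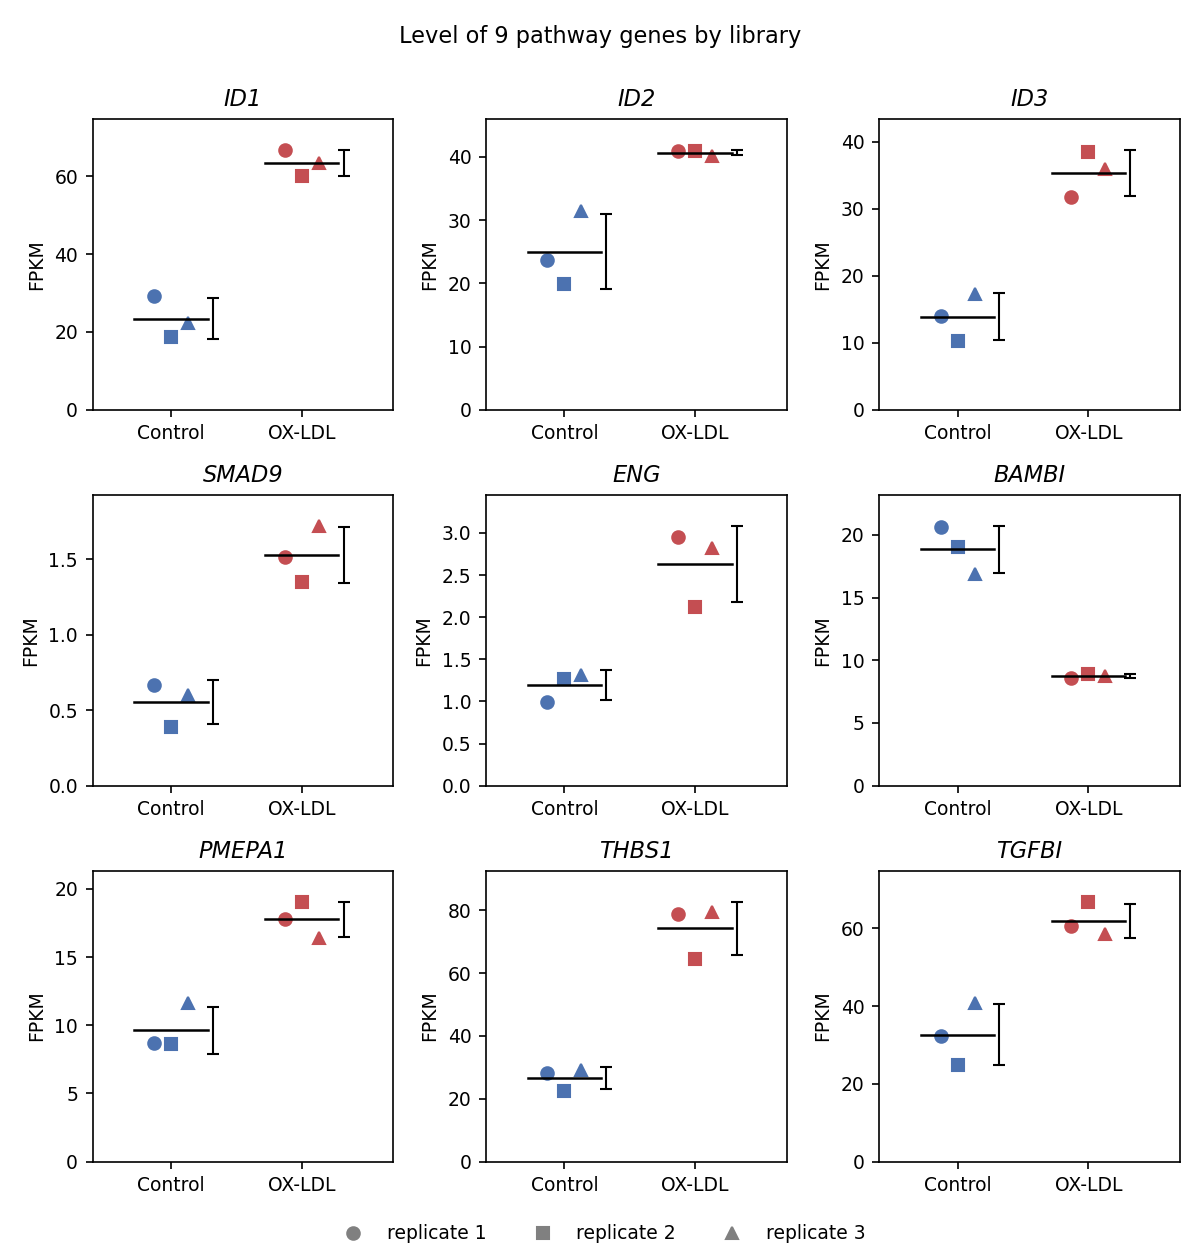
FPKM of 9 pathway genes in the 3 Control (blue) and 3 OX-LDL (red) libraries, with symbols for the replicate, horizontal lines for the group mean and error bars for the SD. Every axis starts at 0. The groups are apart for ID1, ID2, ID3, SMAD9, ENG, PMEPA1, THBS1 and TGFBI, all higher in OX-LDL, and for BAMBI, lower in OX-LDL. Among all tested genes, the groups did not overlap for 37.2%. All 9 genes drawn were called, so they do not represent the 72 tested pathway genes, of which 16 rose, 8 fell and 48 were not called. THBS1 lies between 22.6 and 29.1 FPKM in Control and between 64.6 and 79.4 FPKM in OX-LDL.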

How the data were processed

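RNA-seq of poly(A) RNA was analysed in 3 Control and 3 OX-LDL libraries of HK-2 cells, grouped by the labels. The authors deposited 1 table of 58825 genes with estimated counts, which are whole numbers not scaled for library size, and with FPKM values scaled by the authors per kilobase and library size, with a count of 0 listed at 0.0001. The submitters' processing notes list cutadapt 1.9, HISAT2 2.0.4, StringTie 1.3.4d, edgeR, DESeq2 and GRCh38. The annotation release and the use of strand in counting are not given in the sources used here. Coordinates matched GENCODE release 29 exactly for 81.2% of the 58552 shared identifiers. Of the 9 members found, 4 matched exactly, and TGFB2, TGFB3, TGFBR3, SMAD2 and SMAD3 differed.

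The members and gene lists were chosen with earlier results of these data known. The deposited counts were tested with edgeR 4.0.16 in R 4.3.3 (TMM, glmQLFit, glmQLFTest, group only) over the 19510 genes whose mean reached 0.1 FPKM, with Benjamini-Hochberg adjustment over all of them. SE is the absolute log2 fold change over the square root of F. Ratios were tested with exact permutation in SciPy 1.17.1. The fits were tested on simulated data. About 4 counts made 1 read pair, and 12 counts were taken as the limit of detection. From each list, the text names the called genes up to the 4 with the smallest p, and CCN2, SKIL, PMEPA1 and THBS1. Some genes that the rules would name are not reported here. Alternatives were DESeq2 1.42.0, limma 3.58.1 on log2(FPKM + 0.1) and log2(FPKM + 1), other size factors, read pairs, other minimum levels, a replicate block, and leaving out each library.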

Additional observations from a re-analysis of the deposited data

How the results depend on the processing

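TGFBR2 was called in each of the 8 alternatives of tool, size factor, unit, pseudocount and minimum level. The same-numbered libraries of the groups did not deviate together (correlations -0.11, -0.034 and -0.0015). This gives no sign of pairing by number, but it cannot show that the libraries were unpaired, because pairs with little shared effect would look the same. With a replicate block, edgeR called 1636 genes in place of 2991, 0 members in place of 1 (TGFBR2, adjusted p = 0.0562) and 14 pathway genes in place of 24. Leaving out each library in turn, edgeR called 1161 to 2943 genes, 0 to 2 members and 12 to 23 pathway genes. The fewest were called without Control 2 (1161 genes, 0 members and 13 pathway genes), OX-LDL 3 (1163, 1 and 12) and OX-LDL 1 (1262, 1 and 14), and 1796 and 1993 genes were called without Control 1 and Control 3. These fits have fewer samples. Without some library the log2 fold change turned in sign for 1 of 9 members and 10 of 72 pathway genes, none of them called. They included TGFB3 (0.038 without OX-LDL 1, in a range of -0.56 to 0.038), SKIL (0.15 without Control 2 and 0.059 without OX-LDL 3, in a range of -0.18 to 0.15), ACTA2 (-0.16 without Control 3, in a range of -0.16 to 0.16) and MYC (2.78 without Control 2 and 0.33 without OX-LDL 3, in a range of -1.31 to 2.78). MYC also turned in sign with limma (0.52 and 0.35 with pseudocounts of 0.1 and 1) and with the replicate block (0.29). The within-library ratio of TGFBR2 to TGFBR1, in log2, differed between groups by -0.24 to 0.44 over these fits, that of SMAD2 to SMAD3 by -0.35 to -0.11 and that of SMAD7 to SMAD3 by 0.0081 to 0.20. The planned ratio of TGFB2 to TGFB1 was not run.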

Other observations

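MYC, which TGF-beta lowers in epithelial cells and which was singled out after its values were seen, differed widely between libraries of the same group. Its level was 0.986, 24.7 and 1.26 FPKM in Control and 16.1, 6.04 and 0.978 FPKM in OX-LDL, from 402 to 10120 counts per library. Control 2, the highest library for MYC, was the lowest for TGFBR1 (1.80 FPKM). With this spread the log2 fold change of MYC was -0.18 with an interval of -3.43 to 3.06 (edgeR, adjusted p = 0.948), and its value without each library in turn ran from -1.31 to 2.78.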
